A study of Arabidopsis thaliana with 26 samples.

Results

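The viewpoint hk4s is a HindIII restriction fragment in the knob of heterochromatin that the short arm of chromosome 4 carries in Arabidopsis thaliana. The 2 libraries that start from it, biological replicates A and B, were taken from the 26 libraries of the study (13 viewpoints with 2 replicates each) by their labels, and they were set against the 24 libraries of the other 12 viewpoints. All libraries came from wild-type Col-0 plants, from aerial tissue of seedlings 14 days old, with no treatment. The tissue holds many cell types, so each value is an average over them. Chromosome arms are called by their number and S (short) or L (long). MEA F6, MEA F8, PHE, AT1G51860, FIS, CKI1, AT3G44380 and FLC lie on other chromosomes, AG and FWA on 4L, and SWN and YAO on 4S, on either side of the knob.

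The knob of Col-0 is a stretch of chromosome 4 that an old inversion carried from the pericentromere into the arm, and it is rich in transposons and stains as a compact block. Plant heterochromatin carries methylation of histone H3 at lysine 9 (H3K9me2) and monomethylation at lysine 27 (H3K27me1), while H3K4me2 and H3K36me3 mark gene-rich euchromatin. In interphase the pericentromeres of Arabidopsis gather in chromocenters, from which the gene-rich arms loop out. In 4C, chromatin is cross-linked and cut, touching ends are ligated, and the fragments joined to the viewpoint are amplified from it outwards and sequenced. The libraries address which parts of the genome a piece of heterochromatin touches when it lies within a euchromatic arm.

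The sequences of the viewpoint are shown because every read of the 2 libraries starts from them. The fragment lies at chr4:1761962-1766226 (build TAIR10) and is 4265 bp long. Primer 1 reads towards the right HindIII site across chr4:1766186-1766226 on the plus strand, with the site in capitals, and primer 2 reads towards the NlaIII site across chr4:1765888-1765912 on the minus strand, with that site in capitals.
primer 1 to HindIII: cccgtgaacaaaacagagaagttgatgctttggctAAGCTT
primer 2 to NlaIII: aatccatccttgcatatttggCATG
The primer 1 sequence ends 14 bases before the HindIII site and primer 2 ends directly at the NlaIII site, with 339 bases from one cut to the other. Each primer matched the genome at 1 place. The fragment overlaps 2 pseudogenes, AT4G03813 (1761953 to 1763902) and AT4G03816 (1764934 to 1769859), and no protein-coding gene. The nearest protein-coding gene, AT4G03820, runs from 1771833 to 1774532.

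The chromatin at the viewpoint was that of heterochromatin. Its H3K9me2 density, the percent of bases covered by uniquely placed ChIP-seq reads, was 37.0 and its H3K27me1 density 40.8, against 1.55 for H3K4me2 and 5.42 for H3K36me3. A walk outwards over smoothed H3K9me2 put the knob at chr4:1651309-2195681, 544 kb with 290 HindIII fragments. The viewpoint lies 115 kb from the distal border (the one nearer the chromosome end), 429 kb from the proximal border and 2.19 Mb from the centromere. Over the knob the mean density was 21.0 for H3K9me2, 33.9 for H3K27me1 and 9.09 for H3K4me2. The 500 kb beside it held 3.16 (distal flank) and 6.20 (proximal flank) for H3K9me2. RefSeq places 34 protein-coding genes and 97 pseudogenes among the 152 loci of the knob, against 121 protein-coding genes of 181 loci in the distal flank and 95 of 141 in the proximal flank. The marks at the viewpoint are thus those that its name gives it.

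Replicate A held 6549825 reads at HindIII ends and replicate B 5285213, against 501056 to 4929310 in the other 24 libraries. After the viewpoint itself, its neighbours within 1 kb, the 100 kb around each centromere and fragments with over 90 reads in genomic DNA were left out, 3547981 and 2722325 reads remained on 65036 fragments, more than in most other libraries. SWN kept 409329 and 491136 reads and YAO 703909 and 882091. Values are given as RPM per fragment, with the kept reads of each library scaled to a total of 1000000. The short arm of chromosome 4 took 53.1% of the kept reads in replicate A and 62.9% in replicate B, 4L took 13.7% and 12.2%, and the other chromosomes 33.1% and 24.9%. Replicate A thus had the larger share outside chromosome 4, a difference that ratios within a library do not carry. Over windows of 25 fragments, A and B correlated with a Spearman rho of 0.97 on 4S (106 windows), 0.79 on 4L (315 windows) and 0.48 on the other chromosomes (2174 windows), where the other viewpoints had 0.35 to 0.88.

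The knob was the region most read by hk4s. Its fragments held 982 RPM each in replicate A and 1240 in replicate B, 28.2% and 35.6% of all kept reads. From the same fragments SWN drew a mean of 66.4 RPM and YAO 127 RPM, so the hk4s mean was 16.7-fold and 8.75-fold higher. Of the 287 knob fragments used, 99.3% had reads in both replicates. The distal flank held 323 RPM per fragment in A and 327 in B, and the proximal flank 159 and 176. The replicates lay close together in both flanks, and the flank farther from the viewpoint had the lower level. SWN had 174 RPM in the distal flank and 82.6 in the proximal one, and YAO 178 and 298. The rest of 4S beyond the distal flank held 86.0 and 91.0 RPM per fragment in hk4s. Distance from the viewpoint differs between these regions, and it is held fixed only in the comparisons that follow.

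**Figure D1:**
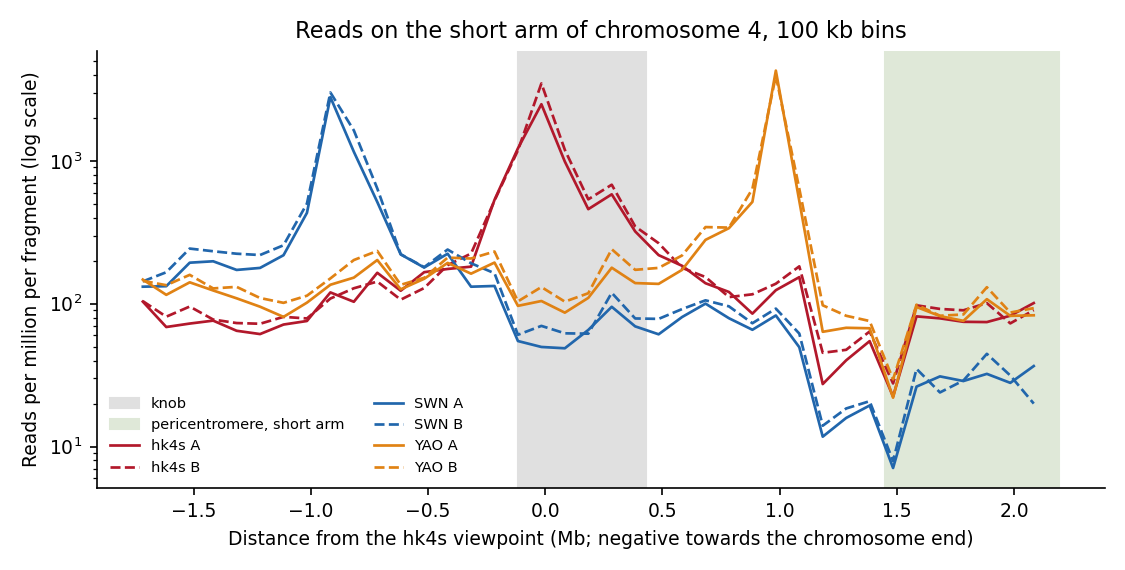
RPM per fragment (log scale) in 100 kb bins along the short arm of chromosome 4, by distance from the hk4s viewpoint (Mb), for replicates A (solid) and B (dashed) of hk4s, SWN and YAO, with the knob and the short-arm pericentromere shaded. The hk4s lines peak inside the knob and run together with the YAO lines across the pericentromere, above those of SWN.

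At matched distance the knob side of the viewpoint held more reads than the opposite side. Between 200 and 500 kb from the viewpoint, where the proximal side is mostly knob and the distal side is euchromatin, the proximal side had 377 RPM per fragment in A and 437 in B over 155 fragments. The distal side had 232 and 266 over 177 fragments. The log2 ratio was 0.70 in A and 0.72 in B, a mean of 0.71 ± 0.01 (SD, n = 2), or 1.64-fold. The difference was widest at 300 to 400 kb, with 392 and 396 RPM on the knob side against 131 and 157, which is 3.0-fold in A and 2.52-fold in B. Within 100 to 200 kb the order was the opposite. There 42 distal fragments, 7 of them in the knob, held 1146 and 1141 RPM, and 62 proximal fragments, all in the knob, held 460 and 561. At 500 to 750 kb, where both sides are outside the knob, the proximal side was again the higher. It had 165 and 166 RPM against 138 and 115 distal (1.19-fold in A and 1.45-fold in B, against 1.22 and 1.47 at 400 to 500 kb). At 750 to 1000 kb the sides differed by 1.03-fold and 1.14-fold. At 1000 to 1500 kb, where most of the proximal fragments have repeated ends, the proximal side had the fewer reads (37.9 and 50.5 RPM against 67.4 and 75.9).

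A difference between sides of 0.71 was not particular to hk4s. Taken in absolute size, the same ratio between 200 and 500 kb ranged from 0.01 (MEA F8) to 2.0 (YAO) in the other 12 viewpoints, with a median of 0.19, and hk4s was the second. The two-sided exact permutation test of 1 viewpoint against 12 gave p = 0.308, and the smallest p this design allows is 0.154, so no such test here can pass 0.05. From the same fragments on the knob side and the distal side SWN had 84.6 and 187 RPM, and YAO 175 and 201, but the 2 sets do not lie at equal distances from SWN or from YAO.

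With the border drawn from H3K9me2, the distal edge of the knob showed no drop in reads apart from that near the viewpoint. In the 100 kb inside the distal border hk4s had 1444 RPM per fragment in A and 2104 in B, against 1015 and 965 in the 100 kb outside, a log2 ratio of 0.51 and 1.13. The inner value rests on the fragments nearest to the viewpoint: the 26 knob fragments at 50 to 100 kb on the distal side had 943 and 921 RPM, no more than the 100 kb outside the border. At the proximal border the values were 309 and 331 inside and 225 and 280 outside, a log2 ratio of 0.46 and 0.24. Inner fragments are nearer to the viewpoint than outer ones. The same walk over H3K27me1 put the knob at 1.631 to 2.292 Mb, so part of the 100 kb outside either border is knob by that mark. Further out on the distal side reads fell, from 1146 and 1141 RPM at 100 to 200 kb to 374 and 437 at 200 to 300 kb. The study reports that significant local contacts of hk4s stopped at the knob borders. It judged windows of 100 fragments by P-values computed for each chromosome arm, and it describes a longer knob than the one drawn here. Mean reads beside the H3K9me2 borders are therefore a different measure and cannot be set directly against that report. Across the distal H3K9me2 border SWN (−1.26) and YAO (−0.99) had fewer reads inside the knob than outside. At the proximal border they were near 0 (−0.04 and −0.11).

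Within the knob, on the proximal side beyond 100 kb of the viewpoint, fragments with more H3K9me2 held slightly more reads. The 86 fragments at or above the median density of 9.94 had 470 RPM in A and 550 in B, and the 85 below it 407 and 471. Among fragments whose 30-base ends each occur once in the genome the values were 468 and 569 against 413 and 462. Both replicates and both sets of fragments had the same order. The first set lay at a mean of 253 kb from the viewpoint and the second at 274 kb, and the difference was not tested.

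The 3 most read knob fragments beyond 10 kb of the viewpoint lay on its distal side, 10.2 to 25.4 kb away. The first, chr4:1735109-1736559, had 4988 RPM in A and 9366 in B. The second, chr4:1746564-1751795, had 6596 and 5340 and overlaps the pseudogenes AT4G03800 and AT4G03810. The third, chr4:1738926-1742314, had 4155 and 7193. The first and the third have the same left end and right ends that are much alike, as the 30 bases after the HindIII site (in capitals) show, each written from the site into the fragment.
fragment 1735109, left end: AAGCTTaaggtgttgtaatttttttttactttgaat
fragment 1735109, right end: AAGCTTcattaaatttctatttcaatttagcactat
fragment 1738926, left end: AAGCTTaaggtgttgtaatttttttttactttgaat
fragment 1738926, right end: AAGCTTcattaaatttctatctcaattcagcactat
fragment 1746564, left end: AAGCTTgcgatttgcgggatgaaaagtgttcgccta
Reads at the shared left end match 3 places in the genome and were divided among them before deposition, so the levels of the first and the third fragment are estimates. Both ends of the second fragment occur once.

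Towards the centromere the reads of hk4s fell off across the proximal flank and reached 60.3 RPM per fragment in A and 68.8 in B over the 463 kept fragments of the 4S pericentromere, the H3K9me2-rich stretch beside the centromere. YAO, which lies 1.21 Mb from the centromere, had 69.9 there, and SWN, at 3.07 Mb, had 22.9. The log2 ratio of the 4S pericentromere to the proximal flank was −1.40 and −1.36 in hk4s (mean −1.38 ± 0.03, SD, n = 2). It was −1.85 in SWN and −2.09 in YAO, so of the viewpoints on 4S hk4s had the smallest drop. The proximal flank ends at 2.69 Mb and YAO lies at 2.75 Mb, so for YAO the flank holds reads close to its own viewpoint. With only unique ends the ratio was −0.84 in hk4s, −1.26 in SWN and −1.65 in YAO. The remaining 10 viewpoints, none of them on 4S, had −1.02 to −0.48, and hk4s ranked the eleventh of 13 (exact permutation test, two-sided, p = 0.462).

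The contrast was strongest across the centromere, on the long arm of the same chromosome. In the 400 kept fragments of the 4L pericentromere hk4s had 48.6 RPM per fragment in A and 53.9 in B, against 15.8 and 13.4 in the 4L euchromatin. The log2 ratio was 1.63 in A and 2.01 in B, with a mean of 1.82 ± 0.27 (SD, n = 2), or 3.52-fold. It was 0.50 in YAO, −0.31 in SWN and down to −2.10 (MEA F8) in the 10 viewpoints off 4L. No other viewpoint overlapped hk4s, which ranked the first of 11 (exact permutation test, two-sided, p = 0.182, the smallest this comparison allows; p = 0.4 within the 5 viewpoints of the second sequencing batch, again the smallest). Counted as the share of fragments with a read in place of mean reads, the ratio was 0.13 in hk4s, the fourth of 11, behind AT1G51860 (0.36), PHE (0.17) and YAO (0.15). In hk4s reads lay on 98.25% of the pericentromere fragments, and on 92.1% (A) and 87.7% (B) of the euchromatin fragments. That left the share little room to differ in hk4s, so its rank by this count is bounded by coverage.

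The high level on 4L reached past the H3K9me2-defined pericentromere and declined with distance. By distance from the centromere, hk4s A and B had 46.7 and 48.1 RPM per fragment at 0.1 to 0.5 Mb, 47.0 and 54.3 at 0.5 to 1 Mb, 33.2 and 28.0 at 1 to 1.5 Mb and 22.6 and 17.9 at 1.5 to 2 Mb. From there it declined to 11.8 and 9.80 beyond 10 Mb. SWN ran the other way, from a mean of 15.1 at 0.1 to 0.5 Mb to 19.7 beyond 10 Mb, and YAO went from 25.8 to 15.3.

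Window by window, the 4L pericentromere was higher in hk4s without exception. Reads were summed in windows of 25 fragments, scaled on the windows outside 4S, and hk4s was tested against the mean of SWN and YAO by edgeR's quasi-likelihood test with Benjamini-Hochberg adjustment at 0.05. Outside 4S 97 of 2476 windows were called (3.92%), 73 higher (2.95%) and 24 lower (0.969%), and 496 had an unadjusted p under 0.05. All 16 windows of the 4L pericentromere were called higher, with log2 fold changes of 1.10 to 2.22 (median 1.59), as were all 20 windows of 4L within 1 Mb of the centromere. In the 4L euchromatin 9 of 299 windows were called higher and 9 lower, 3.01% each. The higher share was close to that over all windows outside 4S (2.95%), and the lower share was above it (0.969%). Against SWN alone all 16 pericentromere windows were called higher, and against YAO alone only 2. The window with the largest change, chr4:4552906-4602090, held no protein-coding gene and 5 pseudogenes. It had 57.8 RPM per fragment in hk4s A, 71.2 in B, 10.6 and 12.1 in SWN and 19.3 and 28.7 in YAO. Its log2 fold change was 2.22 ± 0.29 (SE), with an adjusted p of 7.55e-08 in edgeR. All libraries of hk4s were above all those of SWN and YAO in it.

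The same fit covered 4S. All 11 windows of the knob were called higher (median log2 fold change 3.33), and 12 of the 18 windows of the 4S pericentromere were higher and none lower (median 1.01), in a fit that called 139 of all 2582 windows (5.38%), 106 higher (4.11%) and 33 lower (1.28%). On 4S the compared viewpoints lie at other distances from each window, so distance and chromatin type cannot be told apart in these counts.

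**Figure D2:**
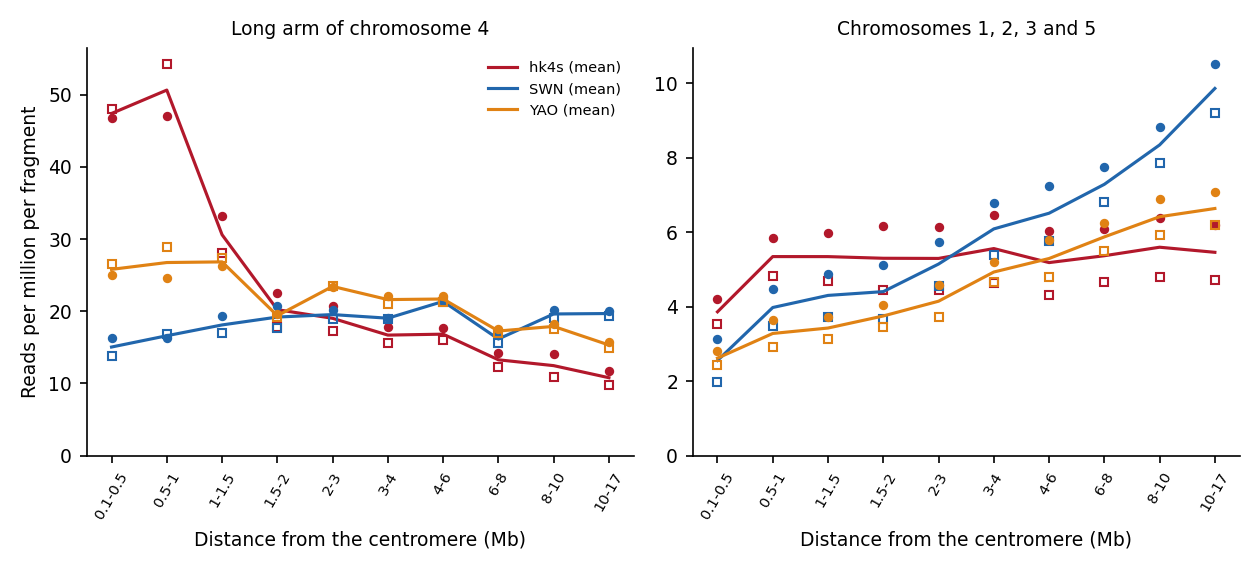
RPM per fragment by distance from the centromere (Mb) on 4L (left) and on chromosomes 1, 2, 3 and 5 together (right); lines are means of hk4s, SWN and YAO, filled circles replicate A and open squares replicate B. On 4L the hk4s values stand at 46.7 to 54.3 within 1 Mb, above both other viewpoints; on the other chromosomes the hk4s line is nearly flat while SWN and YAO climb towards the arm ends.

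On the other chromosomes hk4s read the pericentromeres at about the level of the arms, as PHE did, while most other viewpoints read them less than the arms. In the H3K9me2-defined pericentromeres off chromosome 4 (3184 fragments) hk4s had 6.30 RPM per fragment in A and 5.23 in B, and in the arms 6.07 and 4.53. SWN had 4.21 against 7.37 and YAO 3.61 against 5.55. The log2 ratio of pericentromeres to arms was 0.05 in A and 0.21 in B (mean 0.13 ± 0.11, SD, n = 2). In the other 12 viewpoints it ran from −1.33 (MEA F6) to −0.07 (PHE), with SWN at −0.82 and YAO at −0.62, and no replicate of theirs was above 0. Both hk4s replicates were above every other library, PHE being the nearest (exact permutation test, two-sided, p = 0.154, the smallest possible). Within the second batch the other 4 viewpoints had −0.82 to −0.21 (exact permutation test, p = 0.4, the smallest possible). By the share of fragments with a read hk4s was the third of 13 (0.17), behind AT1G51860 (0.35) and PHE (0.21).

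The sign of this ratio depends on where the pericentromeres end. The H3K9me2 walk stopped early on 1S, 1L and 5L, which gave only 1, 54 and 14 kept fragments. The pericentromere value thus rests on the other centromere sides. Past these stops the fragments were counted as arm. Over the 2 Mb beside the centromere mean H3K9me2 density was 25.2 on 1S, 16.9 on 1L and 32.9 on 5L, against 4.07 over all arms. The arm value therefore includes heterochromatin near centromeres. With every pericentromere taken as the 2 Mb beside the centromere the hk4s ratio was −0.15 (A −0.19, B −0.10). SWN then had −1.11, YAO −0.88 and PHE −0.09, so hk4s was the second of 13. With those borders and only fragments with unique ends it was 0.04, and PHE had 0.07. hk4s stayed above SWN and YAO under each of these borders, while its place ahead of PHE did not hold.

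**Figure D3:**
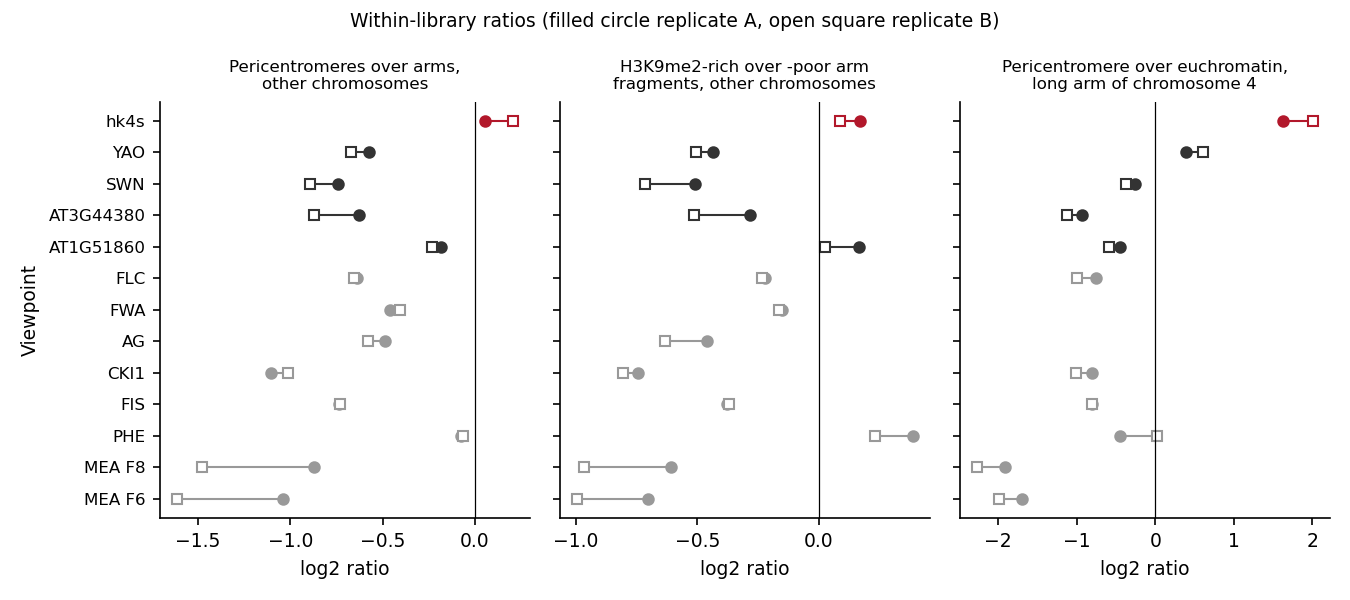
Log2 ratios within each library for the 13 viewpoints: pericentromeres over arms on other chromosomes, H3K9me2-rich over H3K9me2-poor arm fragments on other chromosomes, and pericentromere over euchromatin on 4L (AG and FWA, which lie on 4L, are not drawn there). Filled circles are replicate A and open squares replicate B; hk4s is red, the other viewpoints of the second batch black, those of the first batch grey. hk4s stands to the right of all others in the first and the last panel, at means of 0.13 and 1.82, and behind PHE in the second.

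Each centromere side was then taken by itself, with the 2 Mb beside the centromere set against the rest of its arm. On all 8 sides off chromosome 4 both hk4s replicates lay above both replicates of SWN and of YAO. The sides of chromosome 2 were the highest. On 2L hk4s had 7.16 and 5.99 RPM per fragment near the centromere and a log2 ratio of 0.16 in A and 0.36 in B, with SWN at −0.85 and YAO at −0.52. On 2S it had 8.85 and 8.67, with ratios of −0.15 and 0.32, so the replicates disagreed in sign. The other sides had means at or below 0, from −0.04 on 3L, −0.17 on 5S, −0.35 on 5L, −0.36 on 3S and −0.53 on 1S to −0.94 on 1L. SWN and YAO had −1.61 to −0.85 on those 6 sides. Each side was also compared with every viewpoint off its own chromosome, so the set of viewpoints changes between chromosomes. By this hk4s was the first on 1S, 2S, 2L and 5L, the second on 1L, the third on 3S and 3L and the fourth on 5S. The ranks on 1S and 1L leave out PHE and AT1G51860, which lie on 1L. PHE was above hk4s on 3S (−0.03), 3L (0.09) and 5S (0.19), and below it on 2S, 2L and 5L.

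**Figure D4:**
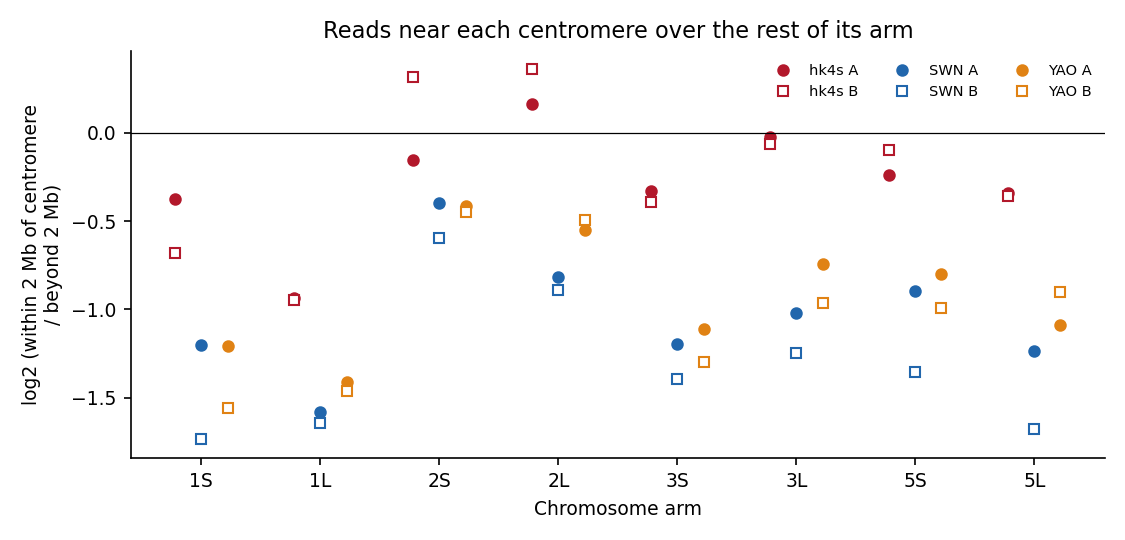
Log2 of RPM per fragment within 2 Mb of the centromere over RPM per fragment beyond 2 Mb, for each chromosome arm off chromosome 4, in replicates A (filled circles) and B (open squares) of hk4s, SWN and YAO. The hk4s points lie above the SWN and YAO points on all 8 arms, and reach above 0 in both replicates only on 2L.

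The windows gave the same picture with the error between replicates taken in. Off chromosome 4, 35 of the 345 windows within 2 Mb of a centromere were called higher in hk4s than in SWN and YAO (edgeR) and 0 lower, with a median log2 fold change of 0.79; 156 had an unadjusted p under 0.05. Of the 1816 windows beyond 2 Mb, 13 were called higher and 15 lower, with a median of −0.08, and in the 590 windows beyond 10 Mb 0 were higher and 10 lower (median −0.32). The share called higher was 10.14% near the centromeres against 2.95% of all windows outside 4S. Of the calls near centromeres, 8 lay on 2S, 8 on 5L, 6 on 2L, 5 on 3L, 4 on 3S, 2 on 1S, 2 on 5S and 0 on 1L. With the replicate letter, which marks the biological replicate and the sequencing lane, as a block in the fit, 77 windows near centromeres were called higher and 0 lower. The count rested on the replicates: without hk4s B 3 remained called and without hk4s A 13, without SWN A 60, without SWN B 21, without YAO A 61 and without YAO B 24. Against YAO alone it was 9, and with windows built from fragments with unique ends 10 of 177.

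By strength of the call the leading windows near centromeres lay on chromosome 2; these windows were singled out after their values were seen. The window chr2:3131921-3176223, which holds the proton pump gene HA6 and 5 pseudogenes, had 8.47 and 8.54 RPM per fragment in hk4s against 2.83 and 2.69 in SWN and 2.10 and 1.32 in YAO. Its log2 fold change was 2.23 ± 0.38 (SE; edgeR adjusted p = 3.42e-05), and 22 of its 25 fragments had unique ends. The window chr2:3723924-3768129 on 2L held 11 pseudogenes and no protein-coding gene, and had 11.4 and 11.9 RPM against 2.54 to 6.53 in the 4 other libraries (log2 1.66 ± 0.32, adjusted p = 0.000269, edgeR). In both, the hk4s replicates lay together and apart from all 4 other libraries.

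The windows called lower with the smallest p lay far out on the arms; they too were singled out after their values were seen. The first was chr3:22940784-22975043, 9.37 Mb from the centromere, with 10 protein-coding genes, among them ROC4, a cyclophilin of the chloroplast, and the leaf and flower shape regulator NGA2. It had 3.77 and 2.94 RPM per fragment in hk4s against 9.12 to 12.4 in SWN and YAO (log2 −1.50 ± 0.33, SE, adjusted p = 0.00221, edgeR). The first window of chromosome 1, chr1:1-71548, with DCL1 (the enzyme that cuts out miRNAs) and LHY (a clock gene), had 3.43 and 4.36 RPM in hk4s, 14.3 and 20.8 in SWN and 5.97 and 7.30 in YAO (log2 −1.21 ± 0.34, adjusted p = 0.0198, edgeR). In the second case YAO lay much nearer to hk4s than SWN did.

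Outside chromosome 4 the reads of hk4s were spread evenly. Across the 4 other chromosomes together it had 3.86 RPM per fragment at 0.1 to 0.5 Mb from a centromere, 5.35 at 0.5 to 1 Mb, 5.19 at 4 to 6 Mb and 5.46 beyond 10 Mb (means of A and B). SWN went from 2.56 to 9.86 over the same distances and YAO from 2.62 to 6.64. The coefficient of variation over windows of 25 fragments was 37.2% in A and 40.8% in B, and the lowest among the other viewpoints was 39.1% in a replicate A and 39.9% in a replicate B. Greater depth gives less sampling noise per window: hk4s had a median of 520 and 298 reads per window, the other viewpoints 24 to 546.

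The same evenness showed against the marks. Across windows of 25 fragments off chromosome 4, Spearman's rho between hk4s reads and H3K9me2 density was −0.02 in A and −0.05 in B, and with H3K27me1 −0.01 and −0.03. The other viewpoints had −0.44 to 0.01 for H3K9me2, with SWN at −0.37 and YAO at −0.34. For the euchromatic marks rho was 0.11 with H3K4me2 and 0.12 with H3K36me3 in hk4s, against 0.54 and 0.51 in SWN and 0.43 in YAO for both. With transcription it was 0.12 in hk4s, 0.47 in SWN and 0.40 in YAO. For H3K9me2 PHE and AT1G51860 were as flat as hk4s, at 0.01 and −0.03. With the euchromatic marks they were flatter than hk4s. PHE had −0.02 for H3K4me2 and −0.02 for H3K36me3, and AT1G51860 −0.01 and −0.02. These correlations describe 2174 windows that share a library and the same published tracks; windows are not replicates, and no test was made of them. With windows of 100 fragments rho was −0.12 for H3K9me2 and −0.08 for H3K27me1 in hk4s. PHE then had 0.04 and 0.05, and AT1G51860 −0.03 and −0.04. For H3K4me2 these windows gave 0.18 in hk4s, −0.11 in PHE and −0.08 in AT1G51860.

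On the arms the most H3K9me2-rich fragments were read slightly more than fragments without H3K9me2 coverage, but reads did not climb steadily with density. Arms here are all fragments outside the knob and the H3K9me2-defined pericentromeres, so they include stretches near the centromeres of 1S, 1L and 5L. Of the 5020 fragments off chromosome 4 in the top 10% of density, only 1302 lay beyond 3 Mb of a centromere. These 5020 fragments had 6.14 RPM in A and 4.60 in B, and the 36751 fragments with a density of 0 had 5.46 and 4.33. The log2 ratio was 0.17 in A and 0.08 in B (mean 0.13 ± 0.06, SD, n = 2). PHE had 0.31, AT1G51860 0.10, SWN −0.61 and YAO −0.47, and the lowest was MEA F6 at −0.85. hk4s ranked the second of 13 (exact permutation test, two-sided, p = 0.308; the first of 5 within the second batch, p = 0.4). By H3K27me1 the ratio was 0.17 in A and 0.18 in B.

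Beyond 3 Mb of a centromere, relative to the mean of all fragments, hk4s had 0.93 at a density of 0, 1.28 over 0 to 5, 1.01 over 5 to 20, 1.20 over 20 to 50 and 1.25 over 50, so the class with little H3K9me2 was the most read. SWN (1.23) and YAO (1.24) also had their highest value over 0 to 5.

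The small excess changed when repeats were left out. Counting only fragments with unique ends, the H3K9me2 ratio was 0.10 in A and −0.03 in B. Only beyond 3 Mb of a centromere, where pericentromeric DNA is left behind, the ratio was 0.29 (A 0.36, B 0.21), and with unique ends there −0.06. In those distant arms the 259 fragments with an H3K27me1 density over 50 were read at 1.53 times the mean of all fragments in A and 1.57 times in B, against 1.03 in SWN, 0.91 in YAO and 1.79 in AT1G51860. Only 36.3% of them had unique ends, and over those alone hk4s had 0.82. For H3K9me2 over 50 (189 fragments) the value was 1.25 with all fragments and 0.91 with unique ends. The excess on the most heterochromatic arm fragments was thus carried by fragments with repeated ends. The part that the dividing of repeated reads plays in it was not tested beyond these values.

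Of the 10 windows off chromosome 4 with the highest hk4s level, 8 lay on 2S and 2 on 5L. The genome-wide medians off chromosome 4 were 5.86 RPM per fragment in A and 4.38 in B. The highest window was chr5:15644365-15700120, with 26.5 RPM in A and 25.98 in B, against a mean of 7.48 in SWN and 6.82 in YAO. It covers 12 protein-coding genes, among them GLP6 and GER2 of the germin-like proteins, a family of secreted cell wall proteins that forms a tandem cluster here, and 3 pseudogenes. Its log2 fold change was 2.13 ± 0.26 (SE; edgeR adjusted p = 1.48e-08). Only 7 of its 25 fragments had unique ends, it had 22.2 reads per fragment in genomic DNA, and one other viewpoint reached 23.7 RPM there. The other 5L window, chr5:11884498-11887367, spans 2.87 kb with no gene and no fragment with unique ends. It had 17.9 and 27.4 RPM in hk4s and 22.0 in YAO.

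Among the 8 windows on 2S, chr2:3228985-3277152 with 20 protein-coding genes had 13.1 RPM in A and 18.4 in B (log2 1.27 ± 0.29, SE, adjusted p = 0.00316, edgeR), with only 3 fragments with unique ends and 18.5 reads per fragment in genomic DNA. The window chr2:2959840-3007799, where 23 of 25 fragments had unique ends, had 13.5 and 14.5 against 9.06 in SWN and 6.11 in YAO (log2 1.17 ± 0.30, adjusted p = 0.0109, edgeR). The window next to the 2S end, chr2:19662-80472, had 16.96 and 13.3 RPM against 16.1 in SWN and 13.2 in YAO, and did not differ beyond the spread of the replicates (adjusted p = 0.582, edgeR). These windows were chosen for a high hk4s level, which favours a higher call, so their adjusted p values describe them and are not a test of 2S. The 2S arm outside the pericentromere had 9.18 and 7.45 RPM in hk4s, against 8.77 in SWN and 6.88 in YAO. A high level on 2S was thus common to the 3 viewpoints of 4S.

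The ends of the 2 nucleolus organizer arms, 2S and 4S, were less read by hk4s than by its neighbours on 4S. These ends sit next to the rDNA repeats. In the first 200 kb of 2S hk4s had 11.9 RPM per fragment in A and 8.89 in B, SWN 16.9 and YAO 12.6. The 2S end was set against the 2S arm outside the pericentromere, the end itself included. Its log2 ratio was 0.37 and 0.26 in hk4s, against 0.95 in SWN and 0.87 in YAO. The first 200 kb of 4S had 82.8 and 90.5 RPM in hk4s, 144 in SWN and 134 in YAO. In hk4s this was the level of 4S beyond the distal flank, the end itself included (log2 −0.05 and −0.01).

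Of the 3 most read fragments off chromosome 4, 2 had repeated ends. The most read was chr5:11887164-11887367, with 403 RPM in A and 651 in B. It had 136 RPM in SWN, 529 in YAO and 67.3 reads in genomic DNA, and in 7 of the 26 libraries it was among the 10 most read fragments on chromosomes other than the viewpoint's own. The next, chr5:11881206-11881388, had 112 and 83.7 RPM. Their left ends are much alike.
fragment 11887164, left end: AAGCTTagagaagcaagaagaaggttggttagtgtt
fragment 11881206, left end: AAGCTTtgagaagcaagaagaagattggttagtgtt
The third, chr2:2961932-2968188, has ends that each occur once and overlaps the pseudogenes AT2G07150 and AT2G07155. It had 53.6 RPM in A and 100.3 in B, against 14.3 in SWN and 8.65 in YAO, and it was among the 10 most read in 1 library only.
fragment 2961932, left end: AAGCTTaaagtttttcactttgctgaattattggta

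The neighbourhoods of the other viewpoints, 100 kb on each side, were last read as targets of hk4s. SWN, the viewpoint near the histone methyltransferase gene of that name, had 111 RPM per fragment in A and 114 in B at 0.886 Mb of chromosome 4, and YAO had 141 and 165 at 2.75 Mb. On 4L the AG neighbourhood (the floral homeotic gene AGAMOUS) had 14.0 and 11.5, and that of FWA, a gene silenced by DNA methylation, had 17.4 and 12.1. The 8 neighbourhoods on other chromosomes had means of 5.0 to 6.22, close together and near the arm level. Seen from the other side, the knob held 60.9 and 71.8 RPM per fragment in SWN A and B, 114 and 139 in YAO, 12.6 and 12.04 in AG and 14.8 and 15.1 in FWA. YAO was above SWN in either direction, and both stood above AG and FWA, which overlapped as targets of hk4s.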

How the data were processed

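The deposited tables held, for each HindIII fragment of the genome, expected counts of 4C reads at HindIII ends and at ends of the second enzyme. Per the study's methods the authors sorted reads by primer, trimmed them to 30 bases, aligned them to TAIR10 without mismatch with Bowtie 0.12.7 (submitters' processing notes) and divided reads that match several places among them, so the counts need not be whole. The deposited coverage signal of published histone ChIP-seq, transcription and input tracks is the percent of a fragment's bases covered by uniquely alignable reads, and reads in repeats are therefore missing from it; genomic DNA was processed like 4C. All 66846 deposited fragments equal an in silico HindIII digest of the RefSeq assembly, from which gene names and sequences were taken. The second enzyme of hk4s is taken as NlaIII, since its site ends primer 2. The study's primer table names NlaIV for hk4s, while its methods name NlaIII and DpnII. The NlaIII site gave the deposited distances in 8952 of 8952 chromosome 4 fragments checked, but these distances were taken from a MEA F6 library and not from hk4s.

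Reads at HindIII ends were kept for fragments beyond 1 kb of the viewpoint, beyond 100 kb of a centromere and with at most 90 genomic DNA reads, and scaled to a total of 1000000 (RPM). Knob and pericentromere borders came from H3K9me2 smoothed over 25 fragments. A viewpoint was the unit of the exact permutation tests (2 replicates averaged on the log2 scale). Counts were rounded, summed in windows of 25 fragments and tested with edgeR 4.0.16 (TMM over windows outside 4S, low windows filtered, quasi-likelihood test), with DESeq2 1.42.0 as an alternative. Replicate letters mark the sequencing lane as well as the biological replicate. Deviations of same-letter libraries correlated at 0.14 (hk4s and SWN), 0.16 (hk4s and YAO) and 0.13 (SWN and YAO), so letters pair the libraries, by lane or by material. The reported edgeR fit had no block for the letter, and a fit with the block was an alternative. Viewpoints were prepared in 2 batches with different adapters; hk4s, SWN, YAO, AT1G51860 and AT3G44380 form the second. The labels call A and B biological replicates.

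The viewpoint, regions, tests and alternatives were chosen with earlier results of these data known. Named were the knob, its flanks, the centromere sides, the ends of 2S and 4S, the 10 highest windows off chromosome 4 and the 5 highest arm windows, the 3 highest fragments of the knob (beyond 10 kb) and off chromosome 4, and the neighbourhoods of the other viewpoints. The mark correlations carry no test. Reads at the ends of the second enzyme were used only in an alternative.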

Additional observations from a re-analysis of the deposited data

Results flagged for a closer look

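The log2 ratio of pericentromeres to arms on other chromosomes was positive in both hk4s replicates and negative in both replicates of SWN and of YAO, with a difference of 0.95 from SWN and 0.75 from YAO that was not tested for these pairs. The ratio of H3K9me2-rich to H3K9me2-poor arm fragments had the same opposition of signs, with a difference of 0.74 from SWN and 0.60 from YAO, also not tested. Of the 5020 rich fragments only 1302 lay beyond 3 Mb of a centromere. Beyond 3 Mb the ratio was 0.29 in hk4s, −0.13 in SWN and −0.08 in YAO. With unique ends there it was −0.06, −0.19 and −0.12, so the signs were no longer opposite. On the long arm of chromosome 4 the ratio of pericentromere to euchromatin was positive in hk4s and negative in SWN, a difference of 2.13 that was not tested. The ratio of knob side to opposite side at 200 to 500 kb differed from that of YAO by 2.71, with opposite signs in all replicates and no test; YAO's sides are those towards and away from the centromere.

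The reads within 100 kb of the centromeres were not used in any comparison, since the assembly of the centromeric repeats is incomplete. On chromosome 4 hk4s had 54.8 RPM per fragment there (A 54.4, B 55.2) over 490 fragments, and SWN and YAO had 27.6 to 52.1; MEA F6 A, on chromosome 1, had 54.8 as well. On the other chromosomes it had 35.3 (A 35.4, B 35.1) over 1292 fragments, SWN and YAO 14.8 to 32.6, and PHE A 44.0, above hk4s. Genomic DNA gave 129 and 124 reads per fragment in these sets, against 9.49 over the arms, so repeated sequence is counted many times over in them.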

How the results depend on the processing

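Of 53 recomputed values of the 5 within-library ratios, 50 kept their direction. Part of this count was fixed in advance. Leaving out 10 kb around the viewpoint changed none of the ratios, and the matched ratio does not use the pericentromere borders. Without the limit on genomic DNA reads the 4L, matched and 4S ratios also stayed the same. With fixed 2 Mb borders the ratio of pericentromeres to arms off chromosome 4 was −0.15, and the ratio of H3K9me2-rich to H3K9me2-poor arm fragments was −0.061 beyond 3 Mb of a centromere with unique ends, an alternative chosen after seeing the data, as were the unique-end windows. Counting fragments with a read in place of reads, the knob side and the opposite side had a ratio of 0.00, since every fragment on both sides had reads. The 4L ratio then was 0.13, with little room to rise since most 4L fragments had reads in hk4s. There and in the ratio off chromosome 4 hk4s lost the first place, while the ratio of the 4S pericentromere was −0.03. Leaving out hk4s A or B gave 0.05 to 0.21 for pericentromeres off chromosome 4, 0.08 to 0.17 for arm heterochromatin, 1.63 to 2.01 for 4L, 0.70 to 0.72 for the matched sides and −1.40 to −1.36 for the 4S pericentromere. With windows of 100 fragments Spearman's rho was −0.12 for H3K9me2 and −0.079 for H3K27me1.

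The count of windows called outside 4S, 97 in the reported fit, was 238 with the replicate block, 166 with windows of 100 fragments, 324 against the 4 other viewpoints of the second batch, 436 against all 12, 176 against SWN alone, 20 against YAO alone and 27 with unique-end windows. It was 24 (without hk4s B) to 154 (without YAO A) with 1 library left out, and 88 to 125 under the other settings, DESeq2 included. The direction held near centromeres: windows called lower there were 0 in all settings except those against 4 (10 of 69 called) and 12 viewpoints (3 of 60). The replicate block ended no call in the 4L pericentromere, where 16 of 16 windows stayed higher. Depth limits SWN and YAO more than hk4s, since their windows had medians of 74 to 104 reads, and 2 replicates of 1 knob viewpoint cannot separate its chromatin from its position on the arm.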
